A study of Homo sapiens with 18 samples.

Results

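The genes examined here are 9 regulators of lysine acetylation, taken by gene symbol. They comprise 5 acetyltransferases (EP300, CREBBP, KAT2A, KAT2B and KAT5) and 4 deacetylases (HDAC1, HDAC2, HDAC3 and SIRT1). The tables of 22RV1 cells held all 9 among 20967 genes with a symbol, and the PC3 table held 8 among 15094, with KAT2A not analysed here in PC3. PC3 and 22RV1 are human prostate cancer cell lines, both castrate-resistant. RNA was sequenced after 24 h from PC3 cells given vehicle (control) or 10 µM canagliflozin (CANA), an inhibitor of the glucose transporter SGLT2. For 22RV1 the groups were control, 10 µM CANA, 5 Gy of radiation (RT) and both (CANA + RT), again at 24 h. Each of the 6 groups had 3 libraries, named A, B and C, 18 in all. The sources do not state for these libraries that they came from separate cultures, so p-values measure the spread between the libraries, which may be technical. Each line is 1 established cell line, and RNA was measured, not protein or acetylation.

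Lysine acetyltransferases move the acetyl group of acetyl-CoA onto histones and other proteins, which loosens chromatin and gives bromodomain proteins a docking site. Deacetylases remove it, the HDAC enzymes with the help of zinc and the sirtuins at the cost of NAD+. p300 (EP300) and CBP (CREBBP) are a pair of large paralogous co-activators that acetylate histone H3 at enhancers and serve many transcription factors, among them HIF-1 alpha and p53. GCN5 (KAT2A) and PCAF (KAT2B) are the alternative catalytic subunits of the SAGA and ATAC complexes. TIP60 (KAT5) is the catalytic subunit of the NuA4 complex and acetylates histone H4 and the kinase ATM at DNA breaks. HDAC1 and HDAC2 form the core of the NuRD, Sin3 and CoREST corepressors, HDAC3 that of the NCoR and SMRT complexes, and SIRT1 deacetylates p53 and PGC-1 alpha among others.

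Promoters were read from the RefSeq table of build GRCh38.p14, in which all 9 genes were matched, with a pair of entries for CREBBP. The 250 bases before the annotated start are shown for EP300 and CREBBP, whose RNA moved alike in PC3 cells, and for KAT5, which was the lowest relative to control of the 9 after radiation. Capitals mark matches, on either strand, to the motifs searched, which were CCGGAAG (the core of ETS sites), TTTCGCGC and TTTGGCGC (E2F), TGACGTCA (CRE), GGGCGG (GC box) and CCAAT.
EP300, chr22:41092342-41092591, plus strand: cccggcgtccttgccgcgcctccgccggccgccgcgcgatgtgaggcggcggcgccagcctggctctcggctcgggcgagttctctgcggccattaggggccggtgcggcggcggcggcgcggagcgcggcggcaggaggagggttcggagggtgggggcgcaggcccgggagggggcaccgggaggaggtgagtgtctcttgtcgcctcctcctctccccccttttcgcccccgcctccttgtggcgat
CREBBP, chr16:3880714-3880963, minus strand: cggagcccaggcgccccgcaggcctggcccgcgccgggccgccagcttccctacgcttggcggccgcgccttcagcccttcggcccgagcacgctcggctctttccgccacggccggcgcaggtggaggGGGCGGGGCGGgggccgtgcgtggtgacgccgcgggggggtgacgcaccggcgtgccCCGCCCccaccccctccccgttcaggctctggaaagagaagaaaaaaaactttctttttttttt
KAT5, chr11:65712002-65712251, plus strand: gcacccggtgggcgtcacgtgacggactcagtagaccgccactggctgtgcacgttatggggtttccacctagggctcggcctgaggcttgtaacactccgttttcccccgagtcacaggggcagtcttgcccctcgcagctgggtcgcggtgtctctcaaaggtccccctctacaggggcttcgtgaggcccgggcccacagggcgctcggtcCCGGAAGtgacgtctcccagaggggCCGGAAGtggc
The EP300 stretch held none of these motifs. The CREBBP stretch shown, its first entry, held 3 GC boxes, a pair of which overlap, at 121, 116 and 64 bases before the start. The second CREBBP entry, not shown, held 4 GC boxes, at 156, 116, 16 and 12 bases before its start. The KAT5 stretch held 2 ETS cores, which began 36 and 11 bases before the RefSeq start, and KAT5 was the only member of the 9 with one. Of all 35116 promoter entries of the same length, 8.52% held the ETS core, 42.6% a GC box, 32.0% CCAAT, 1.65% the CRE, and 0.439% and 0.550% the E2F forms. GC boxes were found in 5 of the 9 genes (CREBBP, KAT2B, HDAC1, HDAC3 and SIRT1), CCAAT in HDAC1 alone, and the E2F and CRE letters in none. A match of letters is not a measured binding site, and neither binding nor methylation was measured here.

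All 9 genes were expressed well above the filters in the libraries that measured them. In GENCODE 44 on hg38, EP300 (ENSG00000100393) lies on chromosome 22 from 41092592 to 41180077 and CREBBP (ENSG00000005339) on chromosome 16 from 3725054 to 3880713, each with 31 exons in its canonical transcript, of 8779 and 10790 bases. KAT5 (chromosome 11, 65711996 to 65719604) has a canonical transcript of 2080 bases, and those of HDAC1 and HDAC3 have 2118 and 1933 bases. The KAT5 promoter stretch shown above, at 65712002 to 65712251, was placed by the RefSeq start and lies inside the GENCODE span of KAT5. Its ETS cores thus come after the GENCODE start. Antisense partners annotated across the 9 genes, among them EP300-AS1 at EP300, RNASEH2C at KAT5 and HDAC2-AS2 at HDAC2, lie on the other strand. By the methods the reads were counted with strand. That does not separate genes annotated on the same strand, which were RNU6-375P at EP300, ENSG00000267261 at KAT2A and MIR3135A at KAT2B.

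Levels between genes were set in order per kilobase of canonical transcript and within a line. HDAC1 came first in both lines, at 2311 ± 37.3 normalized reads per kb in PC3 control cells and 4028 ± 92.9 on the back-transformed rlog scale per kb in 22RV1 control cells (mean ± SD, n = 3). It stood above 95.1% of 13073 genes in PC3 and 98.0% of 14099 in 22RV1. EP300 was nearer the middle, at 227 ± 10.3 per kb in PC3 and 367 ± 12.1 per kb in 22RV1. CREBBP had the lower level of the co-activator pair in both lines, at 144 ± 9.55 and 168 ± 7.03 per kb. KAT2B was last of the genes measured in each line, at 128 ± 4.87 per kb in PC3 and 144 ± 5.04 per kb in 22RV1. In PC3 control cells the order was HDAC1, HDAC3, SIRT1, HDAC2, KAT5, EP300, CREBBP and KAT2B, with no overlap between neighbours. In 22RV1 control cells the order was HDAC1, HDAC3, KAT2A, HDAC2, KAT5, EP300, SIRT1, CREBBP and KAT2B, and only HDAC3 and KAT2A overlapped. The place of HDAC2 depends on the annotation, since its canonical transcript of 9737 bases is the longest of 12 coding transcripts, the shortest of which has 502. The lines were normalized separately, so their levels were not tested against each other.

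The cell lines were checked against markers. VIM, a mesenchymal marker of PC3, was at 35353 to 42149 normalized reads in the 6 PC3 libraries and at an rlog of 5.52 to 5.81 in the 12 22RV1 libraries. AXL, a receptor tyrosine kinase and also a PC3 marker, was at 8850 to 12567 normalized reads in PC3 and at an rlog of -1.73 to -1.71 in 22RV1. PC3 libraries held between 15807924 and 28327063 recovered reads, and the rlog values of 22RV1 give no depth. In PC3 the first principal component (66.1% of the variance) placed CANA replicate B at 50.5 and the remaining libraries at -17.3 to -1.58, and results that rest on it are given with and without it. The summed level of the fibroblast markers in the PC3 table (6 of 8, mostly COL1A1) was 1401 to 1538 in control and 719 to 1169 in CANA libraries. In 22RV1 the back-transformed sum of all 8 was 496 to 510 in control, 507 to 517 in CANA, 606 to 623 in RT and 583 to 612 in CANA + RT libraries. Within this list COL1A1 was at 582 to 1391 normalized reads in PC3 and an rlog of 8.14 to 8.41 in 22RV1, LUM at 38.8 to 68.1 and 6.82 to 7.58, and DCN at 1.14 to 8.10 and 2.94 to 3.04. The sum of the 7 PC3 markers in 22RV1 was 3432 to 3551 in control and 4153 to 4273 in RT libraries. The part of these shifts in the results was not tested.

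Does CANA alter these regulators in PC3 cells? EP300 was at 2067, 2021 and 1892 normalized reads in control and at 1741, 729 and 1607 in CANA cells (libraries A, B and C in turn, as in all lists of values here). All 3 CANA libraries lay below all 3 controls, and replicate B lay far below the other pair. CREBBP had the same pattern, with 1677, 1506 and 1492 in control and 1409, 601 and 1284 in CANA libraries. On the log2(value + 1) scale the differences were -0.65 for EP300 (SE 0.30, 95% interval -1.36 to 0.057) and -0.60 for CREBBP (SE 0.30, 95% interval -1.29 to 0.094). Neither passed limma's test over 13450 genes, with Benjamini-Hochberg adjusted p-values of 0.285 and 0.298. Over all genes tested in PC3, limma called 0% higher and 0% lower, and 0 of the 8 members. On the recovered reads edgeR called 0 genes and DESeq2 263 higher and 84 lower, with none of the 8 members among them in either. At an unadjusted p under 0.05, limma gave 1441 genes higher and 1045 lower, and neither EP300 nor CREBBP was among them.

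The spread of the co-activator pair came mostly from 1 library. EP300 was lower than the control mean by log2 differences of -0.19 in CANA replicate A, -1.45 in B and -0.31 in C, and CREBBP by -0.14, -1.37 and -0.28. Without CANA replicate B, EP300 fell by 0.25 on the log2 scale (SE 0.057, limma adjusted p = 0.00526) and CREBBP fell by 0.21 (SE 0.064, limma adjusted p = 0.0258). In that comparison 10.4% of genes were called higher and 9.52% lower, against 0 of 8 members higher and 2 of 8 lower. Leaving out any other library called none of the 8.

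Both co-activators have long transcripts, and length moved with the values. In CANA replicate B the 1145 genes with a canonical transcript over 8000 bases had a median log2 difference from control of -0.57, and the 1995 genes of up to 1500 bases one of 0.64. In replicates A and C the long genes had medians of -0.042 and -0.050. EP300 and CREBBP lay below the interquartile range of the long genes in each of the 3 CANA libraries, as the plot of change against transcript length shows. HDAC2, in the same class by its canonical transcript, lay above the class median in all 3, at 0.015, 0.37 and 0.079. That transcript is the longest of 12 coding transcripts of HDAC2, whose median is 560 bases, so its class depends on the annotation. With a curve on transcript length removed from each library and all 6 libraries kept, 0 of 8 members were called. With the curve removed and replicate B left out, a setting added after the results were seen, EP300 fell by 0.22 (limma adjusted p = 0.0123) and CREBBP differed by -0.17 (limma adjusted p = 0.0515).

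**Figure D1:**
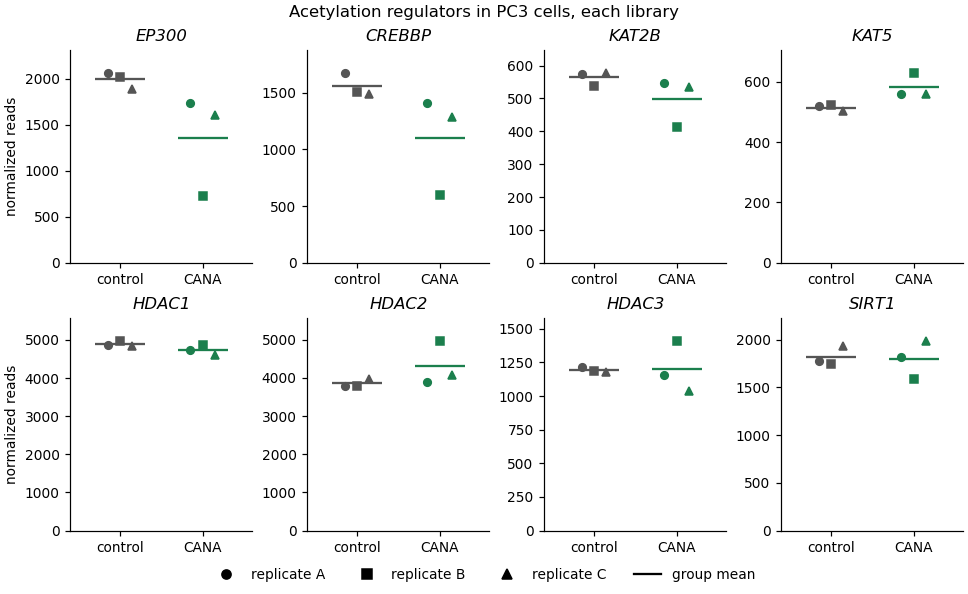
Normalized reads (vertical axis, from 0) of the 8 members measured in PC3 cells in each control and CANA library, with a symbol shape for each replicate and the group mean as the bar. EP300 and CREBBP were lower in all 3 CANA libraries and lowest in replicate B, at 729 and 601, while KAT5 was higher in all 3.

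**Figure D2:**
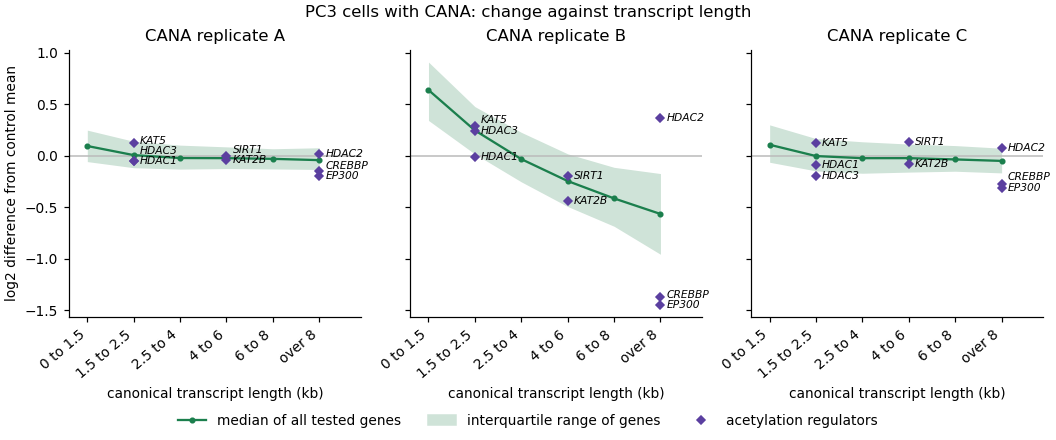
Log2 difference of each PC3 CANA library from the control mean (vertical axis) against classes of canonical transcript length in kb (horizontal axis), as the median and interquartile range of all tested genes, with the members as diamonds. The median ran from 0.64 to -0.57 in replicate B and stayed between 0.11 and -0.050 in replicates A and C, and EP300 and CREBBP lay below the interquartile range in all 3 libraries.

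The remaining PC3 members differed less. KAT5, the TIP60 acetyltransferase, was at 519, 522 and 502 normalized reads in control and at 559, 630 and 561 in CANA libraries. Its groups did not overlap, and its difference of 0.18 (SE 0.088, limma adjusted p = 0.297) did not pass the test. Non-overlapping groups were seen in 3 of the 8 members and in 35.4% of all genes tested. HDAC2 was at 3785, 3793 and 3981 in control and at 3892, 4978 and 4070 in CANA libraries, and HDAC3 at 1218, 1186 and 1176 in control and 1156, 1413 and 1038 in CANA libraries. Replicate B was the highest CANA library for both deacetylases, and their groups overlapped. HDAC2 differed by 0.15 (SE 0.11) and HDAC3 by -0.00098 (SE 0.12). The other 3 members were lower or level on average and overlapped between groups. KAT2B, the PCAF acetyltransferase, was at 575, 540 and 578 in control and at 547, 414 and 535 in CANA libraries. HDAC1 was at 4872, 4982 and 4829 in control and at 4723, 4870 and 4610 in CANA libraries, and SIRT1 at 1782, 1746 and 1933 in control and 1818, 1591 and 1992 in CANA libraries. Their log2 differences were -0.19 for KAT2B, -0.048 for HDAC1 and -0.021 for SIRT1, with limma adjusted p-values from 0.390 to 0.918.

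In unirradiated 22RV1 cells CANA left the 9 genes close to control. EP300 had rlog values of 11.62, 11.71 and 11.63 in control and 11.66, 11.62 and 11.65 in CANA libraries, so the groups overlapped. The difference was -0.013 (SE 0.031, 95% interval -0.076 to 0.051) on the log2 scale. CREBBP was at 10.83, 10.88 and 10.76 in control and at 10.84, 10.70 and 10.79 in CANA libraries, a difference of -0.043 (SE 0.036, 95% interval -0.12 to 0.030). The largest absolute difference among the 9 was that of KAT2A, at -0.060 (SE 0.031, 95% interval -0.12 to 0.0048), with 11.20, 11.27 and 11.20 in control and 11.21, 11.17 and 11.13 in CANA libraries. KAT5 (9.67, 9.61 and 9.66 with CANA) and KAT2B (9.33, 9.32 and 9.38) differed from control by -0.036 and 0.039. The deacetylases lay closer still, with HDAC1 at 13.07, 13.03 and 13.01, HDAC2 at 12.43, 12.44 and 12.46 and HDAC3 at 10.63, 10.58 and 10.55 in CANA libraries, and differences of -0.021, -0.021 and 0.0023. SIRT1 was at 9.53, 9.52 and 9.72 with CANA, a wider spread than in control, and differed by 0.017. No member was called of 9, in a comparison where limma called 0% of 14563 genes higher and 0% lower, and where 241 genes were higher and 180 lower at an unadjusted p under 0.05. The limma adjusted p was 0.997 for 8 of the members and 0.998 for HDAC3, and the groups overlapped for all 9, where 6.36% of all genes had groups that did not. The rlog transformation shrinks differences, so these intervals hold on the rlog scale alone.

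**Figure D3:**
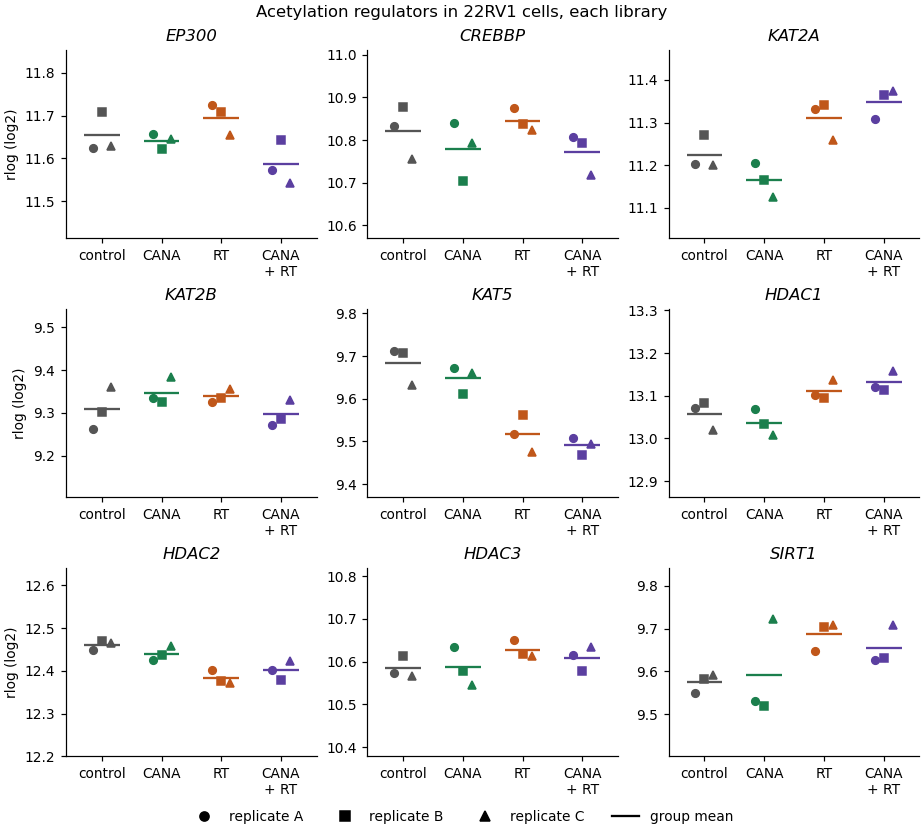
rlog values (log2, vertical axis, all panels spanning the same height) of the 9 members in 22RV1 cells in each of the 12 libraries, with a symbol shape for each replicate and the group mean as the bar. KAT5 and HDAC2 were lower in all irradiated than in all control libraries, and EP300 was lower in the 3 CANA + RT than in the 3 RT libraries.

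Radiation alone changed 4 of the 9 genes in 22RV1 cells, 2 in each direction. KAT5, which acts at DNA breaks, fell most, from 9.71, 9.71 and 9.63 in control to 9.52, 9.56 and 9.48 in RT libraries, with no overlap. The change was -0.17 (SE 0.035, limma adjusted p = 2.60e-04). HDAC2 fell from 12.45, 12.47 and 12.47 to 12.40, 12.38 and 12.37, also without overlap, by 0.078 (SE 0.025, limma adjusted p = 0.0105). SIRT1, the NAD+-dependent deacetylase, rose from 9.55, 9.58 and 9.59 to 9.65, 9.70 and 9.71, by 0.11 (SE 0.043, limma adjusted p = 0.0259). KAT2A, the GCN5 subunit, rose from 11.20, 11.27 and 11.20 to 11.33, 11.34 and 11.26, by 0.086 (SE 0.031, limma adjusted p = 0.0216), and its groups overlapped. Of all genes, 28.4% were called higher and 29.4% lower after radiation, so that 2 of 9 in each direction was no more than the share among all genes. RT and control libraries did not overlap in 61.0% of all genes tested. The calls of KAT5 and HDAC2 held in each of 13 alternatives. That of KAT2A was lost without control replicate A or C and without RT replicate A or B (limma adjusted p = 0.0678 to 0.105), and in limma without trend (0.0501). SIRT1 lost its call without control replicate A and without RT replicate B or C (limma adjusted p = 0.0788 to 0.0821), and with no filter on low values (0.0641).

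The co-activators did not pass the test after radiation alone. EP300 was at 11.72, 11.71 and 11.65 in RT libraries, which overlapped control, with a difference of 0.041 (SE 0.031, limma adjusted p = 0.268). CREBBP was at 10.87, 10.84 and 10.82, with a difference of 0.023 (SE 0.036, limma adjusted p = 0.608). Both differences took a negative sign once the curve on transcript length was removed, at -0.021 and -0.056. HDAC1 was at 13.07, 13.08 and 13.02 in control and 13.10, 13.10 and 13.14 in RT libraries. These groups did not overlap, as in 61.0% of all genes, and the HDAC1 difference of 0.053 (limma adjusted p = 0.102) did not pass. KAT2B, at 9.26, 9.30 and 9.36 in control and 9.33, 9.33 and 9.36 in RT libraries, and HDAC3, at 10.57, 10.61 and 10.57 against 10.65, 10.62 and 10.61, differed by 0.030 and 0.043, with limma adjusted p-values of 0.492 and 0.234. With the curve on length removed HDAC1 was at 0.083 (limma adjusted p = 0.00598) and HDAC3 at 0.077 (limma adjusted p = 0.0219). Both passed the test, which made 6 of 9 members called after radiation. Over all genes the main fit already called 28.4% higher and 29.4% lower, and the share with the curve removed is not given here. The count of 6 was therefore not read as a result about the members.

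CANA added to radiation gave the clearest shift of EP300 in 22RV1 cells, though short of the threshold. EP300 was at 11.57, 11.64 and 11.54 in CANA + RT libraries, all below the 3 RT libraries at 11.65 to 11.72. The difference was -0.11 (SE 0.031, 95% interval -0.17 to -0.046), with an unadjusted p of 0.00159 and a limma adjusted p of 0.0542, at rank 426 by p of 14563 genes. CREBBP was at 10.81, 10.79 and 10.72, also below all 3 RT libraries, with a difference of -0.072 (SE 0.036, limma adjusted p = 0.2997). No member was called of 9, where 1.40% of genes were called higher and 1.17% lower, and 1255 genes were higher and 1255 lower at an unadjusted p under 0.05. Groups of EP300 and CREBBP alone did not overlap among the 9, against 24.8% of all genes. The call of EP300 depends on the setting. Its limma adjusted p ran from 0.00499 with only the RT and CANA + RT libraries fitted to 0.271 without CANA + RT replicate C, and 4 of 13 alternatives placed it under 0.05, among them the one without CANA + RT replicate B (0.0392). Its difference was negative in all 13, from -0.14 to -0.078.

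Transcript length moved with this comparison as well. The 1214 genes over 8000 bases had median log2 differences from the RT mean of -0.044, -0.017 and -0.051 in the CANA + RT libraries, and EP300 had -0.12, -0.053 and -0.15. With the curve on length removed EP300 differed by -0.078 (limma adjusted p = 0.204) and CREBBP by -0.039 (limma adjusted p = 0.683). The other 7 members ranged from -0.042 for KAT2B to 0.038 for KAT2A, with limma adjusted p-values from 0.577 to 0.815.

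The effect of CANA in irradiated minus unirradiated cells tests whether the drug acted differently after radiation. For EP300 this interaction was -0.096 (SE 0.044, unadjusted p = 0.0371, limma adjusted p = 0.454), and for KAT2A 0.098 (SE 0.044, unadjusted p = 0.0366, limma adjusted p = 0.453). EP300 differed by -0.013 with CANA before and -0.11 after radiation, and KAT2A by -0.060 and 0.038. None of the 9 members was called by limma, where 0.0549% of genes were called higher and 0.0481% lower, and 707 genes were higher and 816 lower at an unadjusted p under 0.05. A difference of the EP300 effect between unirradiated and irradiated cells was therefore not shown.

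Set against vehicle control, CANA + RT changed 4 of the 9 genes. KAT5 was at 9.51, 9.47 and 9.49, below all controls, and fell by 0.19 (SE 0.035, limma adjusted p = 4.00e-05). KAT2A was at 11.31, 11.36 and 11.37, above all controls, and rose by 0.12 (SE 0.031, limma adjusted p = 0.00146). Both calls held in each of 13 alternatives. HDAC1, the most abundant member, rose to 13.12, 13.11 and 13.16, by 0.073 (SE 0.028, limma adjusted p = 0.0264), and its call was lost without control replicate C and without CANA + RT replicate C (limma adjusted p = 0.117 and 0.116), and in limma without trend (0.0585). HDAC2 fell to 12.40, 12.38 and 12.42, by 0.060 (SE 0.025, limma adjusted p = 0.0453), and lost its call without any 1 of control replicates A, B and C and CANA + RT replicates A and B (limma adjusted p = 0.0548 to 0.161). It was also lost with only the groups compared (0.0838), with equal library medians (0.0506) and in limma without trend (0.0845), so that 8 of 13 alternatives lost it. Of all genes 28.4% were called higher and 29.2% lower, again near the 2 of 9 in each direction. CANA + RT and control libraries did not overlap in 61.8% of all genes tested. EP300 differed from control by -0.068 (SE 0.031, limma adjusted p = 0.0614) and CREBBP by -0.050 (SE 0.036, limma adjusted p = 0.243). EP300 passed the test in 5 of 13 alternatives, among them those without control replicate A or C (limma adjusted p = 0.0418 and 0.0435) and without CANA + RT replicate B (0.0183). With the curve on transcript length removed both co-activators passed, EP300 at -0.099 (limma adjusted p = 0.00585) and CREBBP at -0.095 (limma adjusted p = 0.0280). SIRT1, at 9.63, 9.63 and 9.71, lay above all controls with a difference of 0.081 (limma adjusted p = 0.107), and KAT2B (9.27, 9.29 and 9.33) and HDAC3 (10.62, 10.58 and 10.63) differed by -0.012 and 0.025. The comparisons of RT and of CANA + RT share the control libraries.

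**Figure D4:**
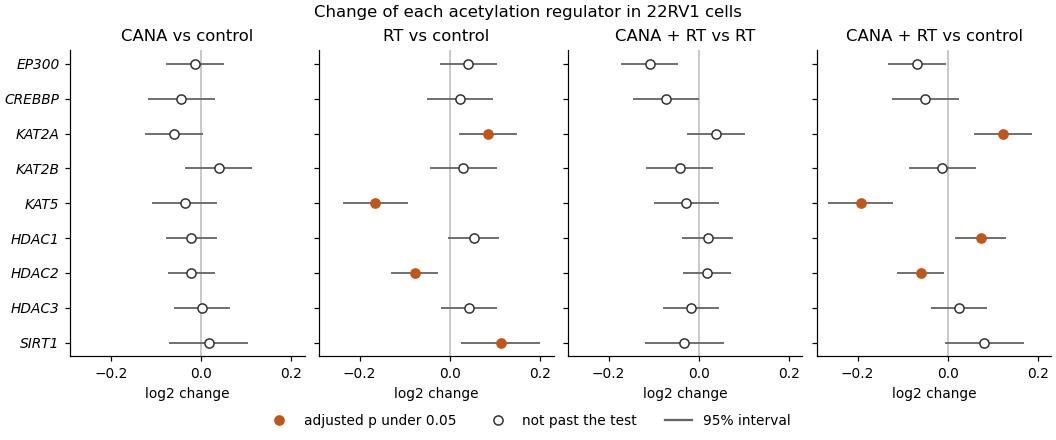
Log2 change of each member (horizontal axis) with its 95% interval in 4 comparisons of 22RV1 groups, with filled points past limma's test at an adjusted p under 0.05. KAT5 lay at -0.17 and -0.19 against control in both irradiated groups, and EP300 lay at -0.11 in CANA + RT against RT without passing the test.

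The paralogs can be set side by side. HDAC1 and HDAC2 had changes of opposite sign against control, at 0.053 and -0.078 with RT and at 0.073 and -0.060 with CANA + RT, of which that of HDAC1 with RT did not pass the test. KAT2A was called in both comparisons and KAT2B in neither, and the difference within this pair was not tested. EP300 and CREBBP had the same sign in each of the 6 comparisons.

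Over the 12 22RV1 libraries, the genes whose rlog values were most like those of EP300, among 9410 others with a mean rlog of at least 8, were SPEN (Pearson r = 0.935), HNRNPU (0.928), ATXN1L (0.913), ADAR (0.904) and CHD8 (0.900). SPEN encodes a large corepressor that recruits HDAC3, HNRNPU a nuclear RNA-binding protein, ATXN1L a repressor that binds Capicua, ADAR an RNA-editing enzyme and CHD8 a chromatin remodeller. These are descriptions over 12 libraries that share their 4 groups, their depth and their preparation, and all 5 genes have canonical transcripts of 6610 to 12385 bases. The likeness also held between libraries of the same group. The correlation of deviations from the group means was 0.945 for SPEN and 0.851 to 0.907 for the other 4. Among the members CREBBP was nearest to EP300, at 0.742 and rank 66, and those of the other 7 ran from -0.203 for HDAC1 to 0.229 for KAT5.

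Other genes of the acetylation machinery were taken from 8 lists. Of all genes tested, 28.4% were called higher and 29.4% lower after radiation, the shares to set beside the list counts. After radiation, the acetyltransferases outside the 9 had 1 of 16 called higher and 5 lower (median log2 change -0.041, against -0.0023 over all genes). ESCO2, which acetylates cohesin in S phase, fell by 0.91 and HAT1, which acetylates newly made histone H4, fell by 0.60. Of the other deacetylases 3 of 14 were higher, among them the class IIa enzymes HDAC7 (0.36) and HDAC5 (0.34), and 2 were lower (median 0.00012). In the NuA4 complex, in which KAT5 works, 2 of 16 subunits were higher and 7 lower (median -0.040), with ING3 at -0.26 and MBTD1 at 0.24. Among SAGA and ATAC subunits, the partners of KAT2A and KAT2B, 6 of 21 were higher and 7 lower (median -0.025), with YEATS2 at 0.36 and ENY2 at -0.28. The corepressor subunits that carry HDAC1 to HDAC3 had 15 of 39 higher and 11 lower (median 0.038), with MTA1 of NuRD at 0.42 and SAP30 of Sin3 at -0.38.

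The lists of acetyl-lysine readers, of partners and of acetyl-CoA genes moved in both directions too. Acetyl-lysine readers had 9 of 25 higher and 6 lower after radiation (median 0.015), with ATAD2 at -0.69 and CECR2 at 0.54, both bromodomain proteins. Of 16 partners of p300, CBP and SIRT1, 5 were higher and 4 lower (median 0.0084), among them NAMPT, which makes the NAD+ that SIRT1 consumes, at -0.31, and EID1, an inhibitor of p300, at -0.28. The list named acetyl-CoA supply had 3 of 13 higher and 6 lower (median -0.055). In it the thiolase ACAT2 was at -0.57 and DLD, a subunit of pyruvate dehydrogenase, at -0.32. Acetyl-CoA was not measured, so a lower enzyme RNA here is not a measure of lower supply. The limma adjusted p-values of these named genes ran from 1.73e-17 for ESCO2 to 4.74e-06 for MBTD1. In CANA + RT against control the calls were 2 higher and 7 lower of 16 other acetyltransferases, 4 and 2 of 14 other deacetylases, 5 and 8 of 21 SAGA and ATAC subunits, 2 and 5 of 16 NuA4 subunits, 13 and 14 of 39 corepressor subunits, 5 and 8 of 25 readers, 5 and 5 of 16 partners and 3 and 5 of 13 supply genes. All genes tested had 28.4% called higher and 29.2% lower in CANA + RT against control. The genes with the largest changes were those above, except that EPC2 of NuA4 (-0.21) and SAP30L of Sin3 (0.34) took the places of MBTD1 and SAP30.

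In CANA + RT against RT, limma called 1 of 16 other acetyltransferases (ESCO2) and 1 of 25 readers (ATAD2) lower. No gene of the remaining lists was called, where 1.40% of all genes were called higher and 1.17% lower. ESCO2 was at 10.78, 10.69 and 10.83 in control, 10.81, 10.84 and 10.90 in CANA, 9.86, 9.90 and 9.82 in RT and 9.68, 9.69 and 9.67 in CANA + RT libraries. It fell by 0.18 in CANA + RT against RT (SE 0.035, limma adjusted p = 0.00527), and that call was lost without RT replicate B (0.0611). ATAD2 was at 12.87, 12.80 and 12.88 in control, 12.83, 12.86 and 12.93 in CANA, 12.18, 12.12 and 12.18 in RT and 11.97, 11.98 and 11.98 in CANA + RT libraries. It fell by 0.18 in CANA + RT against RT (SE 0.030, limma adjusted p = 9.93e-04), with calls in all 13 alternatives. In both genes the 3 CANA + RT libraries lay below the 3 RT libraries, which in turn lay below all unirradiated ones. Non-overlap between the groups compared was a condition for naming these genes.

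**Figure D5:**
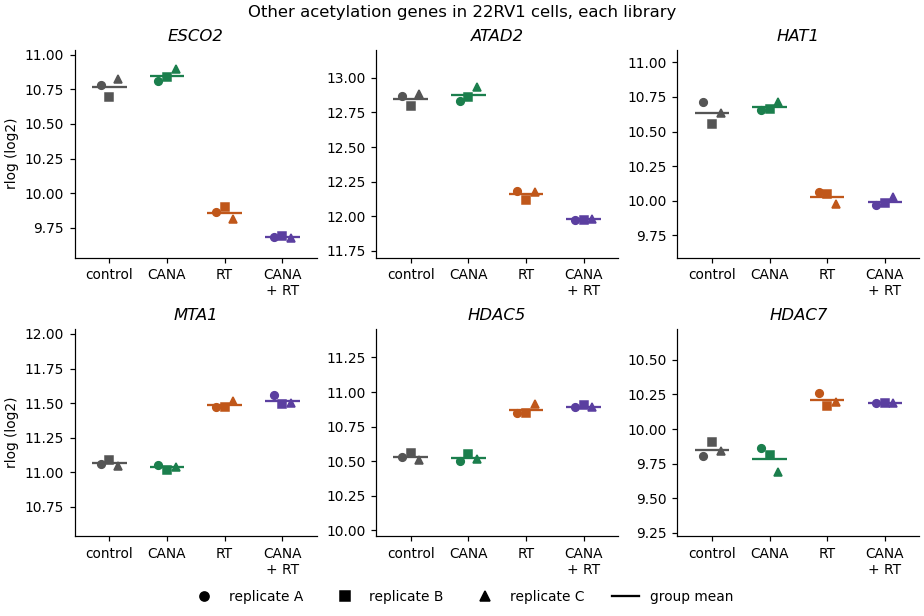
rlog values (log2, vertical axis) of 6 other acetylation genes in the 12 22RV1 libraries, with a symbol shape for each replicate and the group mean as the bar. ESCO2, ATAD2 and HAT1 were lower and MTA1, HDAC5 and HDAC7 higher in irradiated libraries, and ESCO2 and ATAD2 were lower still with CANA + RT.

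In unirradiated 22RV1 cells no gene of the 8 lists was called with CANA, and in PC3 cells none was called over all 6 libraries. The PC3 list medians lay between -0.21 for the readers and 0.043 for NuA4, against -0.010 over all genes. Without CANA replicate B the readers had 0 of 23 higher and 7 lower in PC3 (median -0.14), and the corepressor subunits 1 of 39 higher and 9 lower (median -0.078), where all genes had 10.4% higher and 9.52% lower and a median of -0.0088. The other 6 lists were nearly even, with 3 higher and 2 lower each for SAGA and ATAC, NuA4 and acetyl-CoA supply, 2 and 1 each for the other acetyltransferases and the other deacetylases, and 2 and 2 for the partners.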

How the data were processed

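RNA of PC3 and 22RV1 cells was read as single-end reads of 50 bases, and by their methods the authors trimmed the reads, aligned them to hg38 with HISAT2, counted exonic reads by strand with featureCounts and normalized with DESeq2. Tool versions are not given in the sources used here. The deposited PC3 values are reads divided by a size factor (a signal per gene, not raw counts). Of 91170 values, 99.9989% came out as whole reads within 0.01, which gave the depths. The deposited 22RV1 values are rlog, a shrunken log2 scale on which the authors set all libraries, and their depth is unknown. Libraries that several 22RV1 tables share differed by at most 5e-09 in rlog, so 12 libraries formed 1 matrix. Columns of the authors' own comparisons (fold changes and p-values) were not used, nor were 51 columns of other small sheets with no sample name.

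In R 4.3.3, limma 3.58.1 with trend was fitted to log2(value + 1) in PC3 (mean of at least 10, 13450 genes) and to rlog in 22RV1 (mean of at least 3, 14563 genes, 1 fit of all 4 groups). A PC3 fold change is thus on the log2(value + 1) scale. Tests were two-sided, with Benjamini-Hochberg adjustment over all genes tested and a threshold of 0.05. The fits were tested on simulated data. Alternatives were other filters, pseudocounts and scalings, limma without trend, edgeR 4.0.16 and DESeq2 1.42.0 on the recovered PC3 reads, a lowess curve (span 0.3) on GENCODE 44 transcript length removed from each library, the replicate letter as a block, and each library left out. The fits that left out PC3 CANA replicate B and also changed the method were added after the data were seen. Every member was described, and of each other list the 2 genes past the test with the largest changes, among those whose groups did not overlap, were named in each comparison. The members and lists were chosen with earlier results of these data known. Intervals are at 95%.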

Additional observations from a re-analysis of the deposited data

Results flagged for a closer look

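Among the acetylation genes outside the 9, the CANA effect differed between irradiated and unirradiated 22RV1 cells for ESCO2 and ATAD2 by limma's interaction test. For ESCO2 the effect was 0.08 in unirradiated and -0.18 in irradiated cells, an interaction of -0.26 (SE 0.049, limma adjusted p = 0.0293), which passed in 8 of 18 alternatives (limma adjusted p = 0.00648 to 0.176). For ATAD2 it was 0.025 and -0.18, an interaction of -0.21 (SE 0.042, limma adjusted p = 0.0475), which passed in 5 of 18 alternatives (limma adjusted p = 0.0133 to 0.220). In both genes the CANA and control libraries overlapped in unirradiated cells.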

How the results depend on the processing

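The calls of KAT5 and HDAC2 after RT, and of KAT5 and KAT2A in CANA + RT against control, held in all 13 alternatives. In PC3 the number of members called was 0 to 2 on leaving out 1 library (2 without CANA replicate B), and without that replicate it was 1 with the length curve removed, 2 with edgeR and 2 with DESeq2. In CANA + RT against RT it was 1 (EP300) with only the groups compared, with a mean rlog of at least 6 and with the replicate block, and 0 to 1 on leaving out 1 library. It was 2 in CANA + RT against control by limma without trend, and 2 to 4 after RT on leaving out 1 library. With the length curve removed it was 6 after RT (4 higher, 2 lower) and 6 in CANA + RT against control (2 higher, 4 lower), against 4 in each. Of all genes, the main fit called 28.4% higher and 29.4% lower after RT, and 28.4% and 29.2% in CANA + RT against control. The shares with the curve removed are not given here.

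The letters were not used as pairs in the main fit. Deviations from the group means correlated at 0.045 to 0.123 over 3 same-letter pairs in PC3 and at -0.142 to 0.430 over 18 in 22RV1. Different-letter pairs ran from -0.165 to 0.0651 in PC3 and from -0.369 to 0.433 in 22RV1. Between RT and CANA + RT libraries the same-letter pairs were at 0.103, 0.0917 and 0.170, and different-letter pairs ran from -0.132 to 0.0371. With the replicate block the members called were 4 after RT, 5 in CANA + RT against control (EP300 added, limma adjusted p = 0.0451) and 0 in PC3, in 22RV1 with CANA and for the interaction. EP300 also passed with the block in CANA + RT against RT (limma adjusted p = 0.0384).

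Over all genes, PC3 calls went from 0 to 347 with DESeq2, 41 with the length curve removed and 2683 without CANA replicate B (2473 with the curve, 2523 with edgeR and 1980 with DESeq2). Calls in CANA + RT against RT went from 374 to 1188 with only the groups compared, 105 with no filter, 139 without trend and 95 to 236 on leaving out 1 library. Interaction calls went from 15 to 0 with no filter or no trend and to 0 to 116 on leaving out 1 library.

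Changes of sign were among values short of the threshold, and the cause was not tested. In PC3, HDAC3 was at 0.0020 with equal medians, 0.013 with edgeR and 0.012 with DESeq2, and SIRT1 at 0.040 with the length curve removed. Without CANA replicate B, SIRT1 was at 0.080 with the curve, 0.067 with edgeR and 0.069 with DESeq2. With the curve removed, EP300 and CREBBP after RT were at -0.021 and -0.056, and the interaction of CREBBP and KAT5 at 0.013 and -0.014. On leaving out 1 library, PC3 values ran from -0.12 to 0.099 for HDAC3 and from -0.097 to 0.066 for SIRT1. In 22RV1 with CANA they ran from -0.028 to 0.014 for EP300, -0.021 to 0.022 for HDAC3 and -0.049 to 0.053 for SIRT1. CREBBP after RT ran from -0.0099 to 0.050, and KAT2B in CANA + RT against control from -0.036 to 0.014. Interactions ran from -0.066 to 0.0037 for CREBBP, -0.013 to 0.033 for KAT5, -0.040 to 0.0035 for HDAC3 and -0.085 to 0.017 for SIRT1.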
